A study of Rattus norvegicus with 180 samples.

Results

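Liver was compared with the other 54 organs of a rat organ atlas of microRNA (miRNA) levels. The liver arrays were those of 3 male Sprague-Dawley rats of 10 weeks that were perfused with saline before the organs were taken (rats 4, 5 and 6), and 162 arrays of the same rats covered the other 54 organs. A further 3 livers came from male rats of that strain and age that were not perfused (rats 1, 2 and 3), with kidney, lung, heart atrium and interventricular septum of the same rats, and these served as a repeat. Each array held RNA of 1 organ of 1 rat, so the replicates were separate animals, and the liver RNA came from the left lateral lobe. All 717 miRNAs of the array design were considered, and 6 of the 180 arrays of the series were liver. Of the 717 miRNAs, 345 were tested, those that all 3 perfused arrays of some organ detected. The other 372 were not tested, and 3 of those were detected on at least 1 liver array.

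miRNAs are short RNAs that guide repression of messenger RNAs, mainly through pairing of the seed, bases 2 to 8 of the miRNA, with the target. Most are cut from a hairpin whose arms can each give a mature miRNA, and in the older names used on this array a star marks the less abundant arm. miR-122 is the classic hepatocyte miRNA, and miR-192 is abundant in liver, gut and kidney. The mature sequences below, from RefSeq on build GRCr8, are shown because these miRNAs set liver apart or share a seed with one that does, with the seed in capitals. Mature entries were matched for 39 array names, a count that leaves out names without such an entry. For miR-802 only the hairpin was available, so no sequence is shown for it.

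miR-122: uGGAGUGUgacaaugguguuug
miR-122*: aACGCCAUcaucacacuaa
miR-192: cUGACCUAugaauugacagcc
miR-215: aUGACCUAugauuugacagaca
miR-194: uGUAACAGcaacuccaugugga
miR-101b: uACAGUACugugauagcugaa
miR-101a: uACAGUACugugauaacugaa
miR-193: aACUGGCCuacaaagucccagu
miR-365: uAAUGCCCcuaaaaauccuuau
miR-31: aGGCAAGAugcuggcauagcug

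The next set holds some of the miRNAs that were widely detected elsewhere and low in liver, beside some relatives with the same seed.

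miR-181a: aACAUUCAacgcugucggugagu
miR-181b: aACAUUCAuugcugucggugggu
miR-181c: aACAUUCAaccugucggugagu
miR-146a: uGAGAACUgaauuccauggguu
miR-146b: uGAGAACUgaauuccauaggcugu
miR-204: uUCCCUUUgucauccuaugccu
miR-185: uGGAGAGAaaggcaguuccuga
miR-128: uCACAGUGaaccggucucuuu

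Signals are background-corrected intensities, scaled so that the arrays share the 75th percentile of the 37 miRNAs detected on every array, with values under a floor of 10.8 set to that floor. Intensities of different miRNAs depend on their probes and are not compared with each other. Detection on an array required that more than 50% of the spots for a miRNA read well above background. The perfused livers detected between 105 and 117 miRNAs per array, and the livers that were not perfused between 102 and 118. The arrays of the other organs detected a median of 164.0 (86 to 244), and only pancreas had a lower mean (98.7) than liver (112). Liver arrays were also dim before scaling. Their 75th percentile was between 454 and 569, the median of the other organs was 2042, and 1 organ was dimmer than liver. miR-122 alone made up 55.0%, 49.7% and 51.1% of the summed signal of the liver arrays of rats 4, 5 and 6, and the signal summed without it was the lowest of the 55 organs. Scaling therefore raised liver more than all but 1 other organ, and calls that were lost without scaling are marked for the miRNAs and lists that follow.

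Against the mean of the other 54 organs, 41 miRNAs were higher in liver and 59 were lower (limma, Benjamini-Hochberg adjusted p under 0.05 and a difference of at least 1 log2 unit). These were 11.9% and 17.1% of the 345 tested. The median difference over all 345 was -0.23 log2. Of the 41 higher miRNAs, 8 were also called higher when the arrays were not scaled, 24 when they were scaled to the total signal, and all 41 when they were scaled to the total signal without miR-122. Without scaling the median difference was -0.69 log2, and 20 of the 41 changed sign. Of the 59 lower miRNAs, 58 were also called lower without scaling and 46 with the total signal without miR-122. The 8 higher miRNAs that held under each of 6 other scalings were miR-122, miR-122*, miR-192, miR-194, miR-101b, miR-193, miR-31 and miR-802.

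**Figure D1:**
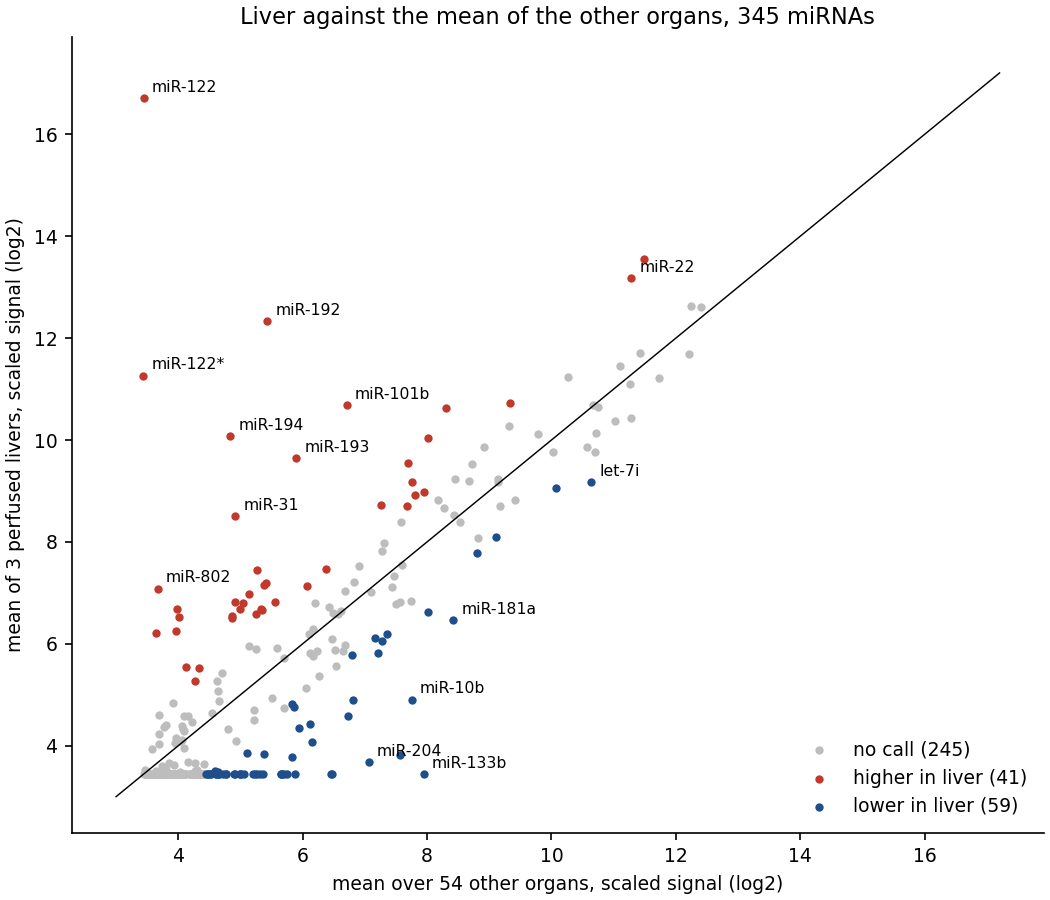
Mean scaled signal (log2) of the 3 perfused livers against the mean over 54 other organs for the 345 miRNAs tested, with the line of equal level. The 41 miRNAs called higher lie above the line with miR-122 farthest from it, and many of the 59 called lower sit at the floor of the liver axis.

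miR-122, which in hepatocytes is known to act on cholesterol metabolism, read 112972, 98773 and 109539 in the livers of rats 4, 5 and 6, and 89151, 104577 and 101172 in the livers that were not perfused. No other organ came near these values. Among the other 54 perfused organs the highest mean was 13.4 in kidney, where 1 array of 3 detected it, and no organ detected it on all 3 arrays. Liver was at least 558-fold higher than any other organ, a bound that is set by the dimmest signals each array could detect. The fitted difference from the mean of the other organs was 13.26 ± 0.04 log2 (SE from limma). Both values depend on the floor, since 52 of these organs detected miR-122 on no array, so the bound is the firmer value. miR-122 is encoded on chromosome 18, at chr18:61028831-61028852 on the plus strand.

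miR-122*, the other arm of the same hairpin (chr18:61028867-61028885), read 2109, 1957 and 3615 in the perfused livers and 1816, 2078 and 1961 in the others. It was detected on no array of the other 54 perfused organs, so that liver was at least 12.9-fold higher than any of them. miR-3591, which RefSeq places on the opposite strand of this hairpin, was at the floor on all liver arrays. An intersection-union test over the 54 pairwise contrasts placed 3 miRNAs higher in liver than in every other organ. miR-122 and miR-122* were 2 of these, but no other organ detected either on all 3 arrays. Both thus entered the tested set through liver alone, so the test gives them no support beyond their detection. The 3 were 0.87% of those tested.

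The third was miR-101b, which read 1490, 1477 and 2041 in the perfused livers and 1746, 1391 and 1517 in those not perfused. The next organ was epididymis at 501 ± 64.4 (SD, n = 3), then testicle at 394 ± 35.6. All 6 liver values were far above both means. Liver was 3.31-fold above epididymis (adjusted p of the intersection-union test 1.83e-09) and 3.98 ± 0.17 log2 above the mean of the organs (adjusted p = 6.81e-44). Without scaling liver was still 2.24 log2 above the mean of the organs, but miR-101b no longer passed the test of being above every organ (limma adjusted p = 1). With normexp background correction that test also failed (limma adjusted p = 0.081). miR-122 and miR-122* passed under both, miR-122* only just with normexp (limma adjusted p = 0.048). Since both entered the tested set through liver alone, their passes give no support beyond detection.

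miR-101b was detected on all 3 arrays of 53 of the 54 other organs, so that liver stood out by level and not by presence. miR-101a has the same seed and differs from it by A16G (the miR-101a base, the position from the 5′ end, the miR-101b base). miR-101a read 296, 300 and 429 in the perfused livers and was highest in mandibular gland at 587 ± 218, with liver at the 7th rank. Its difference of 0.82 ± 0.18 log2 did not reach 1 log2. With a single base between them, how far the probes of the pair separate these miRNAs was not tested. They come from different loci, miR-101b from chr1:236273982-236274002 within the span of Rcl1 and miR-101a from chr5:121081691-121081711.

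**Figure D2:**
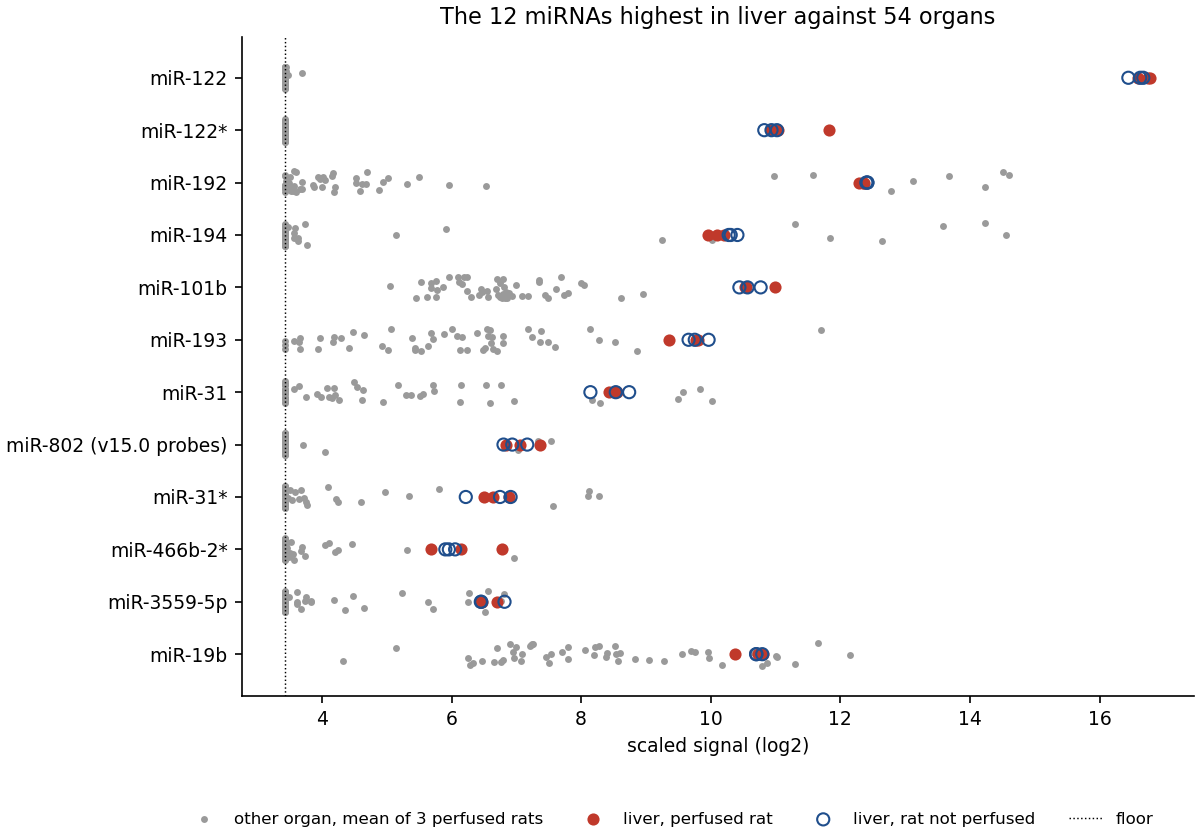
Scaled signal (log2) of the 12 miRNAs with the largest difference in liver. Filled points are perfused livers, open points livers that were not perfused, grey points the means of the 54 other organs, and the dotted line is the floor. miR-122, miR-122* and miR-101b lie above all grey points, and the others overlap with a few organs.

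miR-192 and miR-194 were higher in liver than in most organs, and lower than in the small intestine. miR-192 read 5202, 5023 and 5299 in the perfused livers and 5406, 5471 and 5464 in the others. Liver held the 7th rank, after duodenum (25731 ± 7799), jejunum (23538 ± 4074), ileum (19365 ± 1689), rectum, colon and cecum, and before glandular stomach (3154 ± 895) and kidney (2041 ± 412). In pairwise contrasts adjusted over all organs and miRNAs, liver was above 47 organs, below 4 and not separated from 3. Against the mean of the organs it was higher by 6.91 ± 0.20 log2 (adjusted p = 1.17e-59).

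miR-194 read 992, 1092 and 1175 in the perfused livers and 1362, 1267 and 1241 in the others. Its order of organs began the same way, with duodenum at 25104 ± 8683 and liver again 7th at 1086 ± 91.6, next to glandular stomach at 1069 ± 293. Liver was above 46 organs, below 6 and not separated from 2. The difference from the mean was 5.24 ± 0.16 log2 (adjusted p = 1.81e-56), which depends on the floor, since 35 organs detected miR-194 on no array. Duodenum was 4.82-fold above liver for miR-192 and 22.3-fold for miR-194. RefSeq places the hairpins of Mir192 and Mir194-2 101 bases apart on chromosome 1, and that of Mir194-1 192 bases from Mir215 on chromosome 13.

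miR-215, which shares the seed of miR-192, was at the floor on all 6 liver arrays, while duodenum held 30074. Liver thus carried miR-192 and miR-194 without miR-215 that these probes could detect. The array has another set of miR-215 probes, whose values are not given here. miR-192*, the other arm of miR-192, was detected on 1 of the 6 liver arrays and differed by 0.93 ± 0.09 log2, which is under the size limit. miR-192 is read from chr1:212994232-212994252 and miR-194 from chr1:212994038-212994059 or chr13:99382730-99382751, which give the same mature sequence.

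miR-193 and miR-365 paired liver with fat. miR-193 read 879, 657 and 891 in the perfused livers and 863, 808 and 1001 in the others. Brown adipose tissue was higher at 3361 ± 529, and white adipose tissue came after liver at 467 ± 48.8. Liver was above 52 organs and below 1, and the difference from the mean was 3.75 ± 0.18 log2 (adjusted p = 1.07e-39). miR-365 read 749, 618 and 926 in liver, which held the 4th rank after brown adipose tissue (3104 ± 290), white adipose tissue and the anterior stomach. Its difference from the mean was 1.87 ± 0.22 log2 (adjusted p = 9.21e-13), and 0.15 without scaling. The hairpins of Mir193 and Mir365b lie 13815 bases apart on chromosome 10, on the same strand.

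miR-31 read 363, 346 and 377 in the perfused livers and 283, 428 and 371 in the others. Duodenum (1069 ± 339), glandular stomach, ileum and jejunum were above it, and aorta at 318 ± 61.3 was next below. Above the mean of the organs, liver stood by 3.59 ± 0.27 log2 (adjusted p = 1.31e-23). Its star arm, miR-31*, read 118, 91.0 and 99.6 in the perfused livers and was higher by 2.70 ± 0.14 log2, or 0.91 without scaling. In kidney, miR-31 was detected on 1 of 3 arrays, at a mean of 12.7.

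miR-802 was measured by 2 sets of probes. Those marked v15.0 read 133, 114 and 164.7 in the perfused livers and 123, 144 and 112 in the others, and the other set detected it on 0 of 3 perfused livers. Outside liver, only jejunum (186 ± 15.6), duodenum (161 ± 15.8) and ileum (135 ± 39.2) detected it on all 3 arrays, and 50 organs detected it on none. Liver was above 51 organs and below 0. The difference from the mean, 3.42 ± 0.07 log2, was set against organs mostly at the floor and depends on that floor.

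Other miRNAs with a large difference were dim. miR-3559-5p, whose hairpin lies within Zdhhc15, read 104, 86.5 and 88.8 in the perfused livers and 115 in duodenum, with a difference of 2.52 ± 0.11 log2 from the mean. miR-466b-2*, from a hairpin within Sfmbt2, read 70.8, 51.5 and 110.3 in liver and was detected on all 3 arrays of testicle alone (127 ± 28.1). It differed from the mean by 2.57 ± 0.14 log2, which depends on the floor, since 38 organs detected it on no array. Without scaling these differences were 0.75 and 0.88 log2, under the size limit.

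Some members of the miR-17-92 cluster, known from dividing and lymphoid cells, were also higher in liver. The cluster lies on chromosome 15, but miR-19b and miR-92a also come from hairpins on chromosome X with the same mature sequences. Their signal can therefore not be assigned to either locus. miR-19b read 1786, 1321 and 1698 in the perfused livers, against 4531 in thymus and a median of 283 over the other organs, and differed from their mean by 2.33 ± 0.14 log2 (adjusted p = 5.88e-30). miR-19a, with the same seed, was higher by 2.19 ± 0.18 log2, miR-92a by 2.02 and miR-20a by 1.47. Of the 9 members of the list of this cluster and its relatives, 4 were called higher and 0 lower, beside 11.9% and 17.1% of all tested, and miR-17-5p, miR-18a, miR-106b, miR-93 and miR-25 were not called, with differences between -0.60 and 0.33 log2. None of the 4 was called without scaling, where miR-19b was at 0.61 and miR-20a at -0.27 log2.

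miR-22, abundant in striated muscle, read 9878, 9299 and 8703 in liver, beside 9584 in the organ labelled interseptum and 9340 in gastrocnemial muscle. Liver exceeded the mean by 1.89 ± 0.11 log2, and for its star arm miR-22*, the difference was 1.91 ± 0.19. Without scaling these were 0.18 and 0.04 log2. Over the 60 hairpins with both arms tested, both arms were called higher for 5 (miR-122, miR-31, miR-22, miR-126 and miR-378) and both lower for 2 (miR-133a and miR-9). For 5 hairpins 1 arm was higher and the other not called, for 16 1 arm was lower and the other not called, and for 32 neither was called. The arms were called in opposite directions for 0, and 11.9% and 17.1% of all tested miRNAs were called higher and lower.

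Some probes called higher, named here after their values were seen, did not separate liver from the array scale. miR-2985, miR-3085 and miR-702-3p were detected on all 3 arrays of all 54 other organs and were highest in pancreas, the dimmest organ before scaling. They differed by 1.75, 1.70 and 1.69 log2 after scaling, and by 0.043, -0.0044 and -0.0050 log2 without it. Whether these probes measure miRNAs in liver was not tested.

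**Figure D3:**
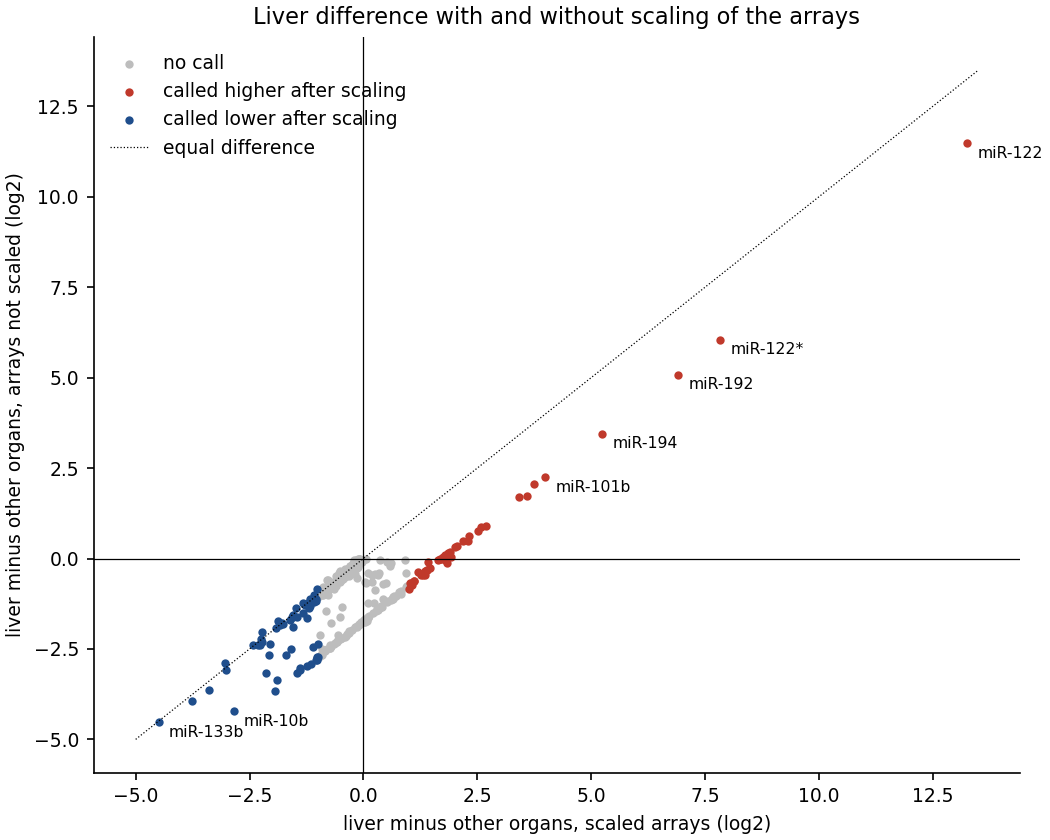
Liver minus the mean of the 54 other organs (log2) for the 345 miRNAs with scaled arrays (horizontal) and without scaling (vertical), coloured by the call after scaling. The 8 miRNAs that stay above 1 log2 on both axes include miR-122, miR-122*, miR-192, miR-194 and miR-101b, while 20 of the 41 called higher fall below 0 without scaling.

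The hepatocyte list, 19 miRNAs known from liver or from lipid metabolism, was mostly high. It had 16 members tested, of which 12 were called higher, 0 lower and 4 neither, with a median difference of 1.90 log2 beside -0.23 over all tested. The share of members called higher, 12 of 16, stood against 11.9% of all tested. Among the 12 were miR-122 and miR-122*, which entered the tested set through liver alone. The list was also drawn up from known liver miRNAs, with earlier results of these data known, so the share is a description and no independent support. The 4 that were not called were miR-192*, miR-148b-3p, miR-101a and miR-33. miR-33, which lies in the Srebf2 gene in mammals and acts in cholesterol export, was detected on 0 of 6 liver arrays, with a difference of 0.50 log2. Without scaling 7 members were called higher and 1 lower, and miR-365, miR-22, miR-22*, miR-378 and miR-378* were no longer called.

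Many of the lower miRNAs are known from other tissues. The largest negative difference belonged to miR-133b, a striated muscle miRNA, which read 10.8, 10.8 and 11.1 in the perfused livers, was at the floor in the others and read 84187 in femoris muscle. The difference from the mean of the organs was -4.50 ± 0.72 log2 (adjusted p = 3.16e-08), and femoris muscle was at least 2341-fold above liver. miR-1 was also at the floor in all 6, with a difference of -3.01 ± 0.76 log2 and femoris muscle at least 1893-fold above liver. Where liver or most of the other organs are at the floor, the fitted difference depends on that floor. A bound, where given, is the firmer value. After normexp background correction, which starts from another signal column and adds a constant before scaling, 2 miRNAs were called lower in all. miR-133b kept its call (-1.24 log2), and miR-1 did not (-0.43). Of the 7 tested muscle miRNAs, 5 were called lower (miR-1, miR-133a, miR-133a*, miR-133b and miR-206), beside 17.1% of all tested, and 0 higher, and miR-208 and miR-499 were not called.

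Most epithelial miRNAs of the miR-200 family were low, although liver has epithelial cells in its bile ducts. miR-200c (v15.0 probes) was not detected on any liver array, with 10.8, 10.8 and 23.5 in the perfused livers, and ventral prostate at 7905 ± 1771 was at least 217-fold higher. Against the mean the difference was -3.76 ± 0.29 log2 (adjusted p = 4.94e-23). miR-141, which shares the cluster with miR-200c, was at the floor on all 6 and differed by -3.04 ± 0.27 log2, and miR-429 read 17.8, 25.5 and 30.9 and differed by -2.13 ± 0.29. Of the 8 entries of this list, which include both probe sets for miR-200c, 5 were lower, beside 17.1% of all tested, 0 higher and 3 not called. miR-200a was detected on 2 of 3 perfused livers and miR-200b on all 3, at -1.38 and -0.73 log2. miR-429 lay below 28 organs.

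miR-10b, which lies beside the HOXD genes, read 26.2, 30.1 and 34.1 in the perfused livers and was detected on 1 of these 3 arrays. Its median over the other organs was 287, and epididymis held 4384. Liver differed from the mean by -2.85 ± 0.22 log2 (adjusted p = 2.11e-23). miR-10a-5p, from the HOXB side, read 441, 576 and 516 in liver and was called higher at 1.04 ± 0.21 log2, or -0.67 without scaling. The call was also lost with the livers that were not perfused (0.91 log2), without rat 5 (0.96), with organ categories weighted equally (0.69), with a floor 4 times as high (0.70) and with the total signal (0.35). miR-196a and miR-196b, also of HOX clusters, were called lower at -1.17 and -1.32 log2. In all, 3 of 5 HOX members were called lower and 1 higher, beside 17.1% and 11.9% of all tested.

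The remaining miRNAs of the 12 largest decreases were miR-204, miR-181b, miR-127, miR-434, miR-205 (v15.0 probes), miR-218 and miR-375, which lay between -3.38 and -2.22 log2. After normexp background correction all of these but miR-204 turned sign, to between 0.27 and 0.53 log2. miR-127 and miR-434, of the imprinted Dlk1-Dio3 region, were at the floor in all 6 livers and read 1996 in pituitary gland and 1622 in thalamus. Over the 30 tested miRNAs of that region, 8 were called lower, beside 17.1% of all tested, and 1, miR-409-3p, higher, with a median of -0.74 log2. These counts became 0 lower and 21 higher with normexp, and 18 lower with a floor 4 times lower. Over all 345 tested, normexp gave 2 lower and 218 higher, and the lower floor gave 92 lower. On none of the perfused livers were 34 of the 36 miRNAs of that region detected, and neither were 83% of all 717 miRNAs. miR-409-3p was at -0.05 log2 without scaling. miR-375, a miRNA of pancreatic islet and other endocrine cells, was at the floor in all 6 livers and read 5873 in pancreas. miR-205 (v15.0 probes), of stratified epithelium, was at the floor in all 6 and read 2076 ± 1066 in esophagus. Its other probes gave -1.83 log2. miR-218 was not detected in liver and read 1063 in cerebral cortex.

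Some of these miRNAs were low in many other organs too. A stricter list was therefore made of miRNAs that were detected on none of the 6 liver arrays but throughout 41 or more of the other 54 organs, all 3 arrays each. It held 10 miRNAs, miR-128 (51 organs), miR-181b (50), miR-324-5p (50), miR-146b (48), miR-185 (47), miR-181c (46), miR-328a (46), miR-29c* (45), miR-204 (43) and miR-99b (42). By the same rule on the perfused arrays alone, liver lacked 12 miRNAs, pancreas 39, ventral prostate 7 and duodenum 5. Both liver and pancreas had dim arrays and detected few miRNAs, and the part of dimness in the list was not tested. With normexp background correction, 8 of the 10 turned above the mean of the organs, by 0.52 to 0.97 log2, and the other 2, miR-204 and miR-128, lost their calls.

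miR-181b was at the floor on all 6 liver arrays, with a median of 40.5 over the other organs and 1609 ± 81.8 in thymus, where the miR-181 family is known to act in T cells. Liver lay at -2.43 ± 0.16 log2 from the mean (adjusted p = 7.14e-27), and liver was below 48 organs. Thymus was at least 44.8-fold higher. miR-181c was at the floor on all 6 too, at -1.92 ± 0.13 log2. miR-181a, with the same seed, was detected in all 6 livers at 98.0, 83.5 and 84.9 in the perfused and 60.5, 82.0 and 81.6 in the others, and liver held the 53rd rank of 55 organs. It was lower by 1.95 ± 0.15 log2 than the mean. miR-181d, with that seed too, was at the floor on all 6. The 4 members were all called lower, beside 17.1% of all tested.

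miR-146b read 12.9, 12.6 and 16.2 in the perfused livers and differed from the mean by -2.04 ± 0.16 log2 (adjusted p = 1.37e-22). Its seed relative miR-146a, known from the innate immune response, read 393, 467 and 399, was detected on all 6 arrays and was called higher at 1.02 ± 0.18 log2. Its call just passed the size limit and was lost with the livers that were not perfused (0.70 log2), without rat 5 (0.96) and with organ categories weighted equally (0.79). It was also lost with the total signal (0.33) and without scaling (-0.69). With a floor 4 times as high the difference stayed about as large (0.9997) but fell just under the limit. The 2 genes are on different chromosomes, 10 for Mir146a and 1 for Mir146b.

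miR-204, from a hairpin within Trpm3 and abundant in the eye, read 10.8, 16.6 and 11.6 in the perfused livers and 13959 ± 1071 in eyeball, which was at least 388-fold higher. The difference from the mean was -3.38 ± 0.26 log2 (adjusted p = 2.32e-23). miR-185, from a hairpin within Tango2, read 16.5, 17.0 and 16.8 with a median of 67.1 over the other organs, and differed by -2.08 ± 0.13 log2. miR-324-5p, not above background in liver, read 20.5, 22.6 and 21.0 there, with a difference of -1.71 ± 0.11 log2. No miRNA passed the test of being below every other organ (0 of 345, or 0%), and 1 did at an unadjusted one-sided p under 0.05.

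miR-128, best known from neurons, read 28.3, 29.8 and 31.4 in the perfused livers and was not detected there, yet was below only 26 organs. Its difference was -1.91 ± 0.17 log2, and the highest values were those of nervous tissue, with 8586 ± 288 in cerebral cortex. miR-99b differed by -1.59 ± 0.14 log2 and miR-328a by -1.01 ± 0.17. miR-29c* at -0.71 ± 0.14 was not called. On the liver array with the most, 45.0% of the spots for miR-128 and miR-328a were above background, close to the limit of 50% for detection, 35.0% for miR-29c*, 25.0% for miR-99b, and 0.0% for miR-181c and miR-146b.

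**Figure D4:**
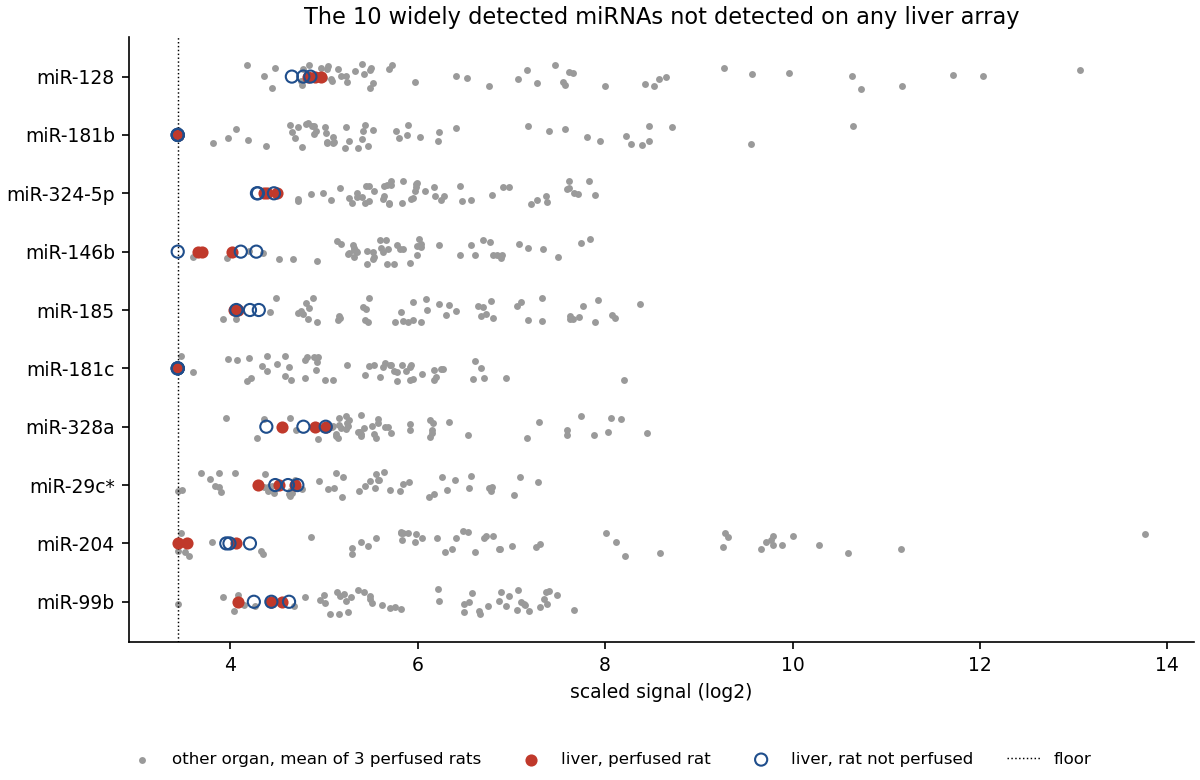
Scaled signal (log2) of the 10 miRNAs that were widely detected but on no liver array, with filled points for perfused livers, open points for livers that were not perfused, grey points for the 54 other organ means, and a dotted line at the floor. For miR-181b and miR-181c all 6 livers sit at the floor, and for miR-128 and miR-29c* the livers lie among the dimmer organs.

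The reverse list, detected on all 6 liver arrays and on all 3 arrays of at most 13 other organs, held 6 miRNAs. These were miR-122 and miR-122* (0 organs each), miR-466b-2* (1), miR-802 (3), miR-31* (9) and miR-194 (11). On the perfused arrays alone this rule gave 6 for liver, 28 for pancreas and 54 for cerebral cortex.

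Markers of other cells in liver were read from lists. Of 11 tested neural miRNAs, 4 were lower and 0 higher, beside 17.1% and 11.9% of all tested, with a median of -0.89 log2, and the 12 on the array were undetected in the perfused livers, as were 83% of all miRNAs. With normexp 0 were lower and 6 higher, beside 2 and 218 of all 345 tested. With a floor 4 times lower 10 were lower, beside 92 of all 345. The leukocyte list had 2 of 8 higher (miR-142-3p at 1.11 and miR-146a at 1.02 log2) and 3 lower (miR-150, miR-146b and miR-181a), beside 11.9% and 17.1% of all tested. Without scaling 0 were higher and 6 lower, with miR-142-3p at -0.62 log2. miR-142-3p was also under the size limit with the livers that were not perfused (0.96 log2), without rat 6 (0.97), with organ categories weighted equally (0.41) and with the total signal (0.40). The summed signal of the leukocyte list was 1312, 1425 and 1581 in the perfused livers and between 1098 and 1510 in the others. miR-511*, from the gene of the macrophage mannose receptor Mrc1, read 75.9, 79.8 and 74.2 in liver, below testicle at 141 ± 11.5 and above spleen at 50.5 ± 6.83, while pancreas at 134 was not above background. In a whole organ, fewer cells of a type and less RNA per cell cannot be told apart. Both endothelial miRNAs were called higher, beside 11.9% of all tested, miR-126 at 1.41 and miR-126* at 1.36 log2, with lung highest at 4330. Neither was called without scaling (-0.31 and -0.45 log2).

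The mesenchymal list had 3 of 8 lower (miR-145, miR-199a-3p and miR-218), beside 17.1% of all tested, and 0 higher, with miR-143 at -0.94 log2. Of the 10 squamous and glandular epithelium miRNAs, 2 were higher (miR-31 and miR-31*) and 2 lower (miR-205 and miR-183), shares near the 11.9% and 17.1% of all tested. Of 5 tested pancreas and gut miRNAs, 1 was lower (miR-375), near the 17.1% of all tested, and miR-215 was at -0.93 log2. Among miRNAs that most organs express, the let-7 family had 2 of 8 lower, near the 17.1% of all tested, with let-7i at -1.47 ± 0.11 log2 and the last of the 55 ranks in liver (554, 631 and 553 against a median of 1656). The miR-30 and miR-29 lists had 0 called of 7 and 0 of 4. The list of miR-99, miR-100 and miR-125 had 3 of 5 lower, beside 17.1% of all tested. It had 4 lower without scaling, 1 higher and 1 lower with the total signal without miR-122, and 0 lower with normexp. The list of miR-23, miR-24 and miR-27 had 1 of 5 lower, which is also near that share. This was miR-27a, whose difference just passed the size limit. Without scaling, all 8 let-7 members, 6 of 7 in the miR-30 list and 4 of 4 in the miR-29 list were called lower. Over all 345 tested, 129 were called lower without scaling. The miR-30 and miR-29 families, and let-7 taken as a family, were thus not separated from the array scale. Within let-7, let-7i was called lower both with scaling and without it. At least 1 let-7 member also stayed lower under each of the other scalings and with normexp.

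The organs whose levels were most like liver over the 345 miRNAs were kidney (Pearson r = 0.83 across miRNAs of mean log2 signal) and brown adipose tissue (r = 0.83), followed by white adipose tissue (0.81). Thalamus (0.46) and pancreas (0.44) were least alike, and without miR-122 kidney was at 0.87. miRNAs are not independent points, and the floor adds to these values. Against kidney, 41 miRNAs were higher in liver (11.9%) and 38 lower (11%), which became 12 and 91 with the total signal and 9 and 104 without scaling. miR-101b, detected on all arrays of both organs, was higher by 4.14 ± 0.23 log2 (adjusted p = 2.19e-32), and by 2.15 without scaling. miR-192 was 1.36 ± 0.28 log2 higher in liver than in kidney (adjusted p = 1.90e-05), and miR-194 differed by 0.83 ± 0.23. Without scaling these were -0.63 (adjusted p = 0.17) and -1.16 log2, and the sign turned for both. miR-10b, detected on 1 of 3 livers, read 1574 in kidney and was lower in liver (adjusted p = 1.07e-34). miR-429, miR-196b and miR-196a were undetected in liver, and kidney was at least 17.8-fold, 6.10-fold and 5.23-fold higher.

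Against brown adipose tissue, 29 miRNAs were higher in liver (8.41%) and 46 lower (13.3%), which became 15 and 81 with the total signal and 12 and 91 without scaling. miR-192 was higher by 7.82 ± 0.28 log2, and miR-194, undetected in brown adipose tissue, was at least 75.9-fold higher (adjusted p = 5.53e-52), while miR-193 was lower by 2.06 ± 0.25 and miR-365 by 2.04 ± 0.31. miR-378, which lies in Ppargc1b in mammals and is known from oxidative metabolism, was lower by 3.17 ± 0.28 log2 (adjusted p = 4.31e-19), although it was higher in liver than the mean of the organs by 1.40 ± 0.20 log2, a difference of -0.31 without scaling. miR-10b read 1176 in brown adipose tissue and was lower in liver (adjusted p = 3.69e-32).

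The rats that were not perfused gave the same contrast in a smaller set, liver against the mean of kidney, lung, atrium and interventricular septum, with no array in common. Of 191 miRNAs detected throughout at least 1 of these organs, 47 were higher (24.6%) and 39 lower (20.4%) in the liver of perfused rats. In rats that were not perfused, 47 were higher (24.6%) and 41 lower (21.5%). Without scaling these counts were 9 higher and 130 lower in perfused rats, and 10 higher and 128 lower in the others. The same miRNAs were called higher for 43, which is 91.5% of either list, and lower for 37, which is 94.9% of the perfused and 90.2% of the other list. miR-101b differed by 4.61 ± 0.15 log2 in perfused rats and 4.61 ± 0.08 in the others, miR-192 by 6.76 ± 0.13 and 6.68 ± 0.17, and miR-193 by 4.09 ± 0.12 and 4.33 ± 0.10. No miRNA was called in opposite directions (0).

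**Figure D5:**
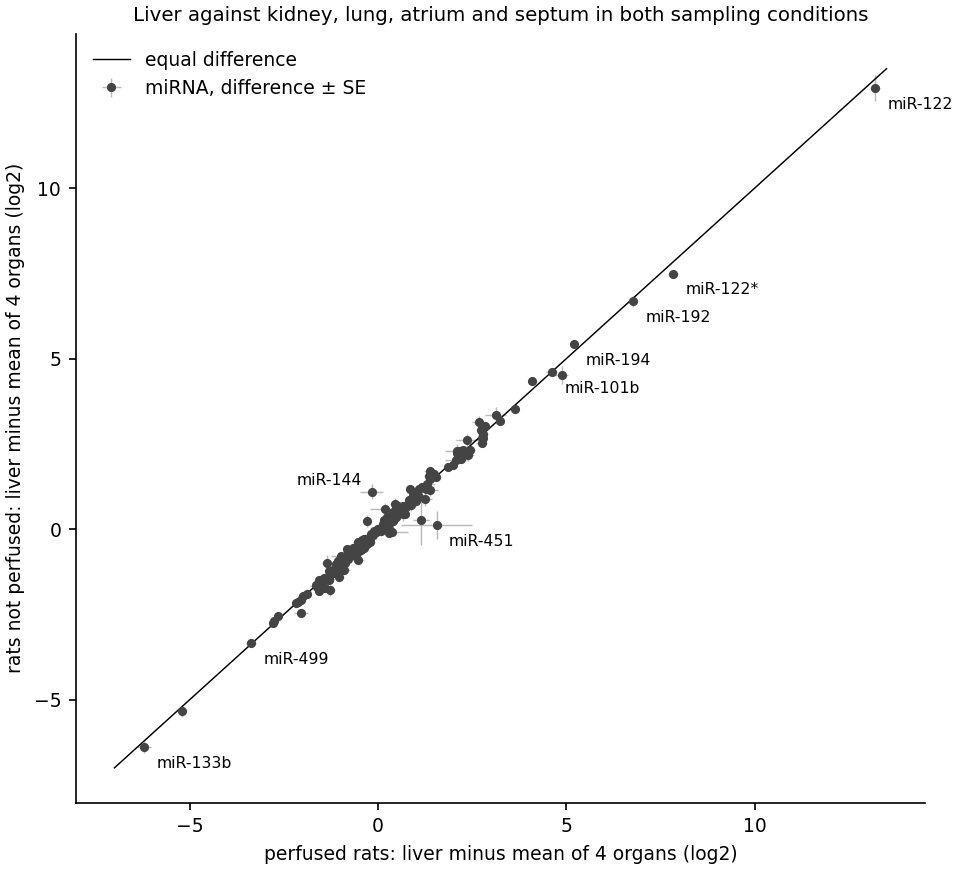
Liver minus the mean of kidney, lung, atrium and interventricular septum (log2, with SE from limma) in perfused rats (horizontal) and rats that were not perfused (vertical) for 191 miRNAs, with the line of equal difference. Most points lie on the line from miR-133b to miR-122, and miR-144 lies above it.

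A direct test found 0 miRNAs (0%) whose liver contrast differed between the sampling conditions (limma interaction, lowest adjusted p = 0.32), with 7 of 191 at an unadjusted p under 0.05. The 5 with the lowest adjusted p were miR-194, miR-144, miR-30e, miR-378* and miR-582. miR-144, an erythroid miRNA, was at the floor in the 3 perfused livers and read 19.4, 24.0 and 40.4 in the others. Its contrast was 1.27 ± 0.39 log2 lower in perfused rats (adjusted p = 0.32), or 0.13 log2 higher without scaling. miR-194 differed by -0.24 ± 0.07 log2 between the conditions.

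miR-451, from the same erythroid cluster, read 167, 113 and 156 in the perfused livers and 272, 474 and 497 in the others, without overlap. In the perfused livers it was 1.78 ± 0.55 log2 above the mean of the other organs (adjusted p = 0.0027), while miR-144 and miR-144* were not called, and without scaling it was at -0.05 log2. Summed over the erythroid list, the signal was between 135 and 189 in perfused and between 302 and 549 in the other livers.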

How the data were processed

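Agilent 1-colour arrays of 717 rat miRNAs were used, with 180 arrays on 23 slides. The deposited scanner files hold background-subtracted spot intensities written by Agilent Feature Extraction 10.7.3, per the submitters' processing notes. The authors' normalized value table, a linear signal that matched these intensities up to 1 factor per array, was used as an alternative. Spots marked as outliers were left out, spots and then probes were averaged, and arrays were set to a common 75th percentile over 37 miRNAs that every array detected, floored at 10.833 and put on the log2 scale. No spot was saturated (0). The number of arrays limits the precision.

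limma 3.58.1 (R 4.3.3, tables with Python 3.11.15) fitted 1 term per organ and condition, with Benjamini-Hochberg adjustment over 345 or 191 miRNAs. Pairwise organ contrasts were adjusted over all miRNAs and organs. On simulated arrays the contrast with the mean found 95% of planted changes of 1 log2 unit, 99% of 2 and 100% of 4, over 345 miRNAs. These shares rest on the adjusted p alone. Recovery under the size limit used for the calls, or for miRNAs at the floor, was not tested.

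Every organ of a condition came from the same 3 rats, so rat numbers pair the samples. Residuals of the perfused livers correlated with other organs of the same rat by 0.0038, 0.048 and 0.059 (rats 4, 5 and 6), and with those of other rats by 0.010, -0.025 and -0.040. Titles and source names gave different rat numbers for 8 arrays, none of liver, and the title was used. Each perfused liver was on a slide of its own among the livers.

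Named miRNAs were miR-122 and miR-192, the 12 largest calls in each direction, those above every organ, the missing and few-organ lists, the other arms and hairpin neighbours of these, the 5 lowest interaction p-values and members of lists. The miRNAs and lists were chosen with earlier results of these data known. Alternatives were other scalings, background, floor, spot summary, filter, variance model, blocks, organ weights, size limits, detection rules and leaving out rats or livers.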

Additional observations from a re-analysis of the deposited data

How the results depend on the processing

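Counts moved with normexp background correction, scaling, the floor, the size limit, the filter and the organ limits. The 41 higher and 59 lower miRNAs against the mean became 24 and 89 with the total signal and 8 and 129 without scaling. With the authors' table there were 85 higher. A floor 4 times as high gave 23 and 31, a floor 4 times lower 92 lower, no size limit 71 and 189, a limit of 2 log2 units 16 and 15, and detection on 50% of arrays 38 lower. Background correction by normexp with offset on the median spot signal gave 218 and 2. It starts from another signal column and adds a constant before scaling, which by construction adds more to dim arrays, and the part of each was not tested. Against kidney (41 and 38) the total signal gave 12 and 91, no scaling 9 and 104, 85 and 80 came from the authors' table, normexp 270 and 8, and the lower floor 67 and 58. Against brown adipose tissue (29 and 46) these were 15 and 81 with the total signal, 12 and 91 without scaling, 75 lower with the authors' table, 235 and 17 with normexp, 19 higher with the higher floor and 18 higher with detection on 50% of arrays. In the 4-organ contrast of perfused rats (47 and 39) the total signal gave 30 and 80, no scaling 9 and 130, normexp 125 and 4, the 75th percentile of all miRNAs 85 lower, quantile normalization 63 lower, 77 lower from the authors' table and the higher floor 25 lower. In rats not perfused (47 and 41) these were 30 and 83, 10 and 128, 107 and 6, 88 lower with the 75th percentile, 80 lower with the authors' table, and 29 and 26 with the higher floor. The 3 miRNAs above every organ became 6 with the total signal without miR-122 and 1 with detection on 50% of arrays, where miR-122 and miR-122* are not tested. They became 2 without scaling and with normexp, both times without miR-101b. The interaction count of 0 became 1 with the total signal, 1 with quantile normalization and 3 without a filter. The 10 missing miRNAs became 22 for 28 organs and 0 for 54, and the 6 of few organs became 2 for 54. With normexp, signs turned for miR-181b (0.53), miR-127 (0.28), miR-434 (0.27), miR-205 (0.35), miR-218 (0.45), miR-375 (0.50), miR-324-5p (0.56), miR-146b (0.66), miR-185 (0.52), miR-181c (0.83), miR-328a (0.71), miR-29c* (0.97) and miR-99b (0.56). The interaction turned for miR-144 (0.13 without scaling, 0.36 with normexp), miR-378* (0.10 with normexp) and miR-582 (0.036 without scaling, 0.28 with normexp). Leaving out 1 rat or liver gave 39 to 44 and 57 to 59 against the mean, 35 to 48 and 36 to 40 against kidney, 28 to 33 and 44 to 49 against brown adipose tissue, 44 to 48 and 35 to 43 in perfused rats, 46 to 47 and 37 to 43 in the others, 3 above every organ, 0 below, 0 to 1 for the interaction, and 5 to 6 of few organs. The missing list held 10 to 17, with 17 when rat 6 was left out. miR-328a lost its call without rat 6 (-0.87). The rat number as a replicate block gave 41 and 59 against the mean, 42 and 38 against kidney, 29 and 47 against brown adipose tissue and 0 for the interaction, and changed no other call count by over 1.5 times. For 32 named miRNAs over 24 alternatives, 718 values kept their call, 27 lost it, 2 gained one and 13 turned sign, and 9 of the 32 had the same call under every alternative. Members called in the lists moved as follows. Without scaling, 7 hepatocyte miRNAs were higher and 1 lower, 0 higher and 6 lower of the leukocyte list, 0 higher of the erythroid, endothelial, HOX, Dlk1-Dio3 and miR-17-92 lists, 1 higher and 4 lower of the squamous list, and lower were 7 mesenchymal, 2 pancreas and gut, 8 let-7, 6 miR-30, 4 miR-29, 4 miR-17-92 and 5 of the miR-23 list. The total signal gave 0 higher for the leukocyte, erythroid, endothelial, HOX and Dlk1-Dio3 lists, and 7 mesenchymal, 5 let-7, 1 miR-30, 2 miR-29, 2 miR-17-92 and 3 of the miR-23 list lower. The total signal without miR-122 gave 4 leukocyte higher, and the miR-99 list 1 higher and 1 lower. With it, with the 75th percentile of all miRNAs, with quantile normalization and with the authors' table, let-7 had 1 lower, miR-30 1 higher, the miR-99 list 1 higher and the miR-23 list 0 lower. The authors' table also gave 1 higher each for muscle, miR-200, endothelial and mesenchymal, 2 for pancreas and gut, 5 squamous and 1 miR-17-92 lower, and 2 higher and 18 lower for Dlk1-Dio3. With normexp, 6 neural, 2 muscle, 2 miR-200, 1 leukocyte, 3 erythroid, 1 mesenchymal, 6 squamous, 2 pancreas and gut, 2 HOX and 21 Dlk1-Dio3 miRNAs were higher, 1 muscle and 1 let-7 lower, and 0 lower in the neural, miR-200, leukocyte, mesenchymal, squamous, pancreas, HOX, Dlk1-Dio3, miR-99 and miR-23 lists. The higher floor gave 2 muscle, 1 HOX and 2 Dlk1-Dio3 lower, 1 leukocyte and 1 endothelial higher, and 0 higher for erythroid, HOX and Dlk1-Dio3, and the lower floor 10 neural, 2 pancreas and gut and 18 Dlk1-Dio3 lower. Detection on 50% of arrays gave 1 neural, 2 muscle, 1 squamous, 0 pancreas and gut, 1 HOX and 3 Dlk1-Dio3 lower and 1 squamous higher. Equal weight for organ categories gave 2 muscle, 2 pancreas and gut, 5 Dlk1-Dio3, 1 let-7 and 0 of the miR-23 list lower, 0 leukocyte and 0 HOX higher and 1 of the miR-99 list higher. The livers not perfused, set against the same organs, gave 0 leukocyte, 2 erythroid, 0 HOX, 1 miR-30 and 1 miR-99 list higher and 2 of the miR-23 list lower. Without the 8 arrays of unclear rat number the miR-23 list had 0 lower. Leaving out rats changed the leukocyte list to 1 higher (rat 5 or 6), HOX to 0 higher (rat 5), let-7 to 1 lower (rat 6), miR-30 to 1 higher (rat 4), the miR-99 list to 1 higher (rat 5) and the miR-23 list to 0 (rat 4 or 5) or 2 lower (rat 6). The cause of these shifts was not tested.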
